A study of Mus with 2 samples.

Results

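Transcripts that mark neutrophils, and the chemokines that draw neutrophils through their receptor CXCR2, were followed spot by spot across 2 sections of mouse tumors. The 9 genes were taken by symbol from the 32285 features of the deposited gene tables, and each of them had at least 20 UMIs over both sections, as did 14313 features in all. They fall into a neutrophil group of 5 genes (S100a8, S100a9, Csf3r, Retnlg and Cxcr2) and a ligand group of 4 genes (Cxcl1, Cxcl2, Cxcl3 and Cxcl5). A UMI (unique molecular identifier) tags 1 captured RNA molecule, so that each molecule is counted once. Levels are given as UMIs per 1000000 UMIs of the section or area (CPM).

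Both tumors were grown from CT26, a mouse colon carcinoma line placed under the skin of balb/c mice 6 to 8 weeks old. The rIL7 mouse received 10 µg of recombinant mouse IL-7 into the peritoneum on days 11 and 13, the control is labelled PBS, and both tissues were labelled day 15. Frozen sections of 10 µm were read with Visium, which captures RNA on spots that carry barcodes, and a spot covers a small area with several cells that can be of different types. Each group had 1 section from 1 tumor, so no replicate stands behind any difference, no test was possible and no p-value is given. Intervals in parentheses are 95% counting intervals. They hold nothing of the spread between mice, between libraries, or between spots of a section beyond counting error. Since a spot holds many cells, more cells of a type and more RNA per cell cannot be told apart.

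Neutrophils are short-lived granulocytes that leave the blood for inflamed tissue. They follow chemokines of the CXC family, which tissue cells and myeloid cells release in response to inflammatory signals and which bind CXCR2 on the neutrophil surface. In tumors these cells are known to gather in hypoxic or necrotic areas as well as at the margin. S100a8 and S100a9 encode the subunits of calprotectin, the most abundant cytosolic protein of neutrophils, which monocytes and stressed keratinocytes also make. Csf3r encodes the receptor for granulocyte colony-stimulating factor, Retnlg a resistin-like protein of bone marrow and blood neutrophils, and Cxcr2 the chemokine receptor itself. Cxcl1, Cxcl2 and Cxcl3 are close relatives induced by NF-kB, and Cxcl5 is a further ligand of the same receptor that epithelial, stromal and tumor cells can make.

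On the mouse build GRCm38 (mm10), with positions from RefSeq, the 4 ligand genes lie within 147 kb of chromosome 5. Cxcl5 is at chr5:90759298-90761625, Cxcl3 at chr5:90786101-90788093, Cxcl1 at chr5:90891245-90893121 and Cxcl2 at chr5:90903899-90905938. S100a8 (chr3:90669071-90670034) and S100a9 (chr3:90692630-90695721) are also neighbors, 22.6 kb apart. Csf3r (chr4:126023441-126044975), Retnlg (chr16:48872608-48874498) and Cxcr2 (chr1:74153994-74161246) lie elsewhere, Cxcr2 beside its paralog Cxcr1 (chr1:74191785-74194708). All 9 are protein-coding.

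The control section kept 2219 spots with 22951678 UMIs, and the rIL7 section 1950 spots with 25729233 UMIs. The median depth of a spot was 9623 UMIs in the control against 12921.5 in rIL7. Markers of mature and immature neutrophils outside the 9 genes were uneven. Ly6g, which encodes the surface antigen that defines mouse neutrophils, had 0 UMIs in both sections, which allows up to 0.131 and 0.117 CPM in control and rIL7 by counting error. The granule genes Ngp and Elane also had 0 UMIs in both sections, Camp had 1 and 0, Ltf 2 and 6, and Cxcr1, the second receptor for some CXC ligands, 1 and 3. Other markers were detected, and of 15 listed neutrophil markers 10 had at least 20 UMIs over both sections. The granule genes Mmp8 and Mpo had 27 and 34 and 34 and 42 UMIs in control and rIL7. Il1r2 had 415 and 341 and Mmp9 1085 and 3438. The name of the neutrophil group is therefore that of its genes, and no number of neutrophils is derived from it.

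The comparison of the sections asked how the level of these transcripts differed between the tumor of the treated mouse and that of the control mouse. The 4 ligands were all higher in rIL7, and so was calprotectin, while the receptor genes Csf3r and Cxcr2 differed little. S100a9 had 1977 UMIs (86.1 CPM) in the control and 4207 UMIs (164 CPM) in rIL7, which gave a ratio of 1.90 (1.80 to 2.00). S100a8 had 712 UMIs (31.0 CPM) and 1562 UMIs (60.7 CPM), a ratio of 1.96 (1.79 to 2.14). The pair thus moved by nearly the same factor, and together it made up 83.8% of the UMIs of the neutrophil group in the control and 89.4% in rIL7.

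Csf3r stood at 421 UMIs (18.3 CPM) in the control and 579 UMIs (22.5 CPM) in rIL7, giving a ratio of 1.23 (1.08 to 1.39). Cxcr2 had 80 and 89 UMIs, or 3.49 and 3.46 CPM, a ratio of 0.992 (0.725 to 1.36). Retnlg was scarce, with 20 and 13 UMIs and a ratio of 0.580 (0.265 to 1.22). The interval of Cxcr2 reaches from 1.38-fold lower to 1.36-fold higher in rIL7, and that of Retnlg spans both directions too. Summed over the 5 genes, the neutrophil group stood at 140 CPM and 251 CPM, a ratio of 1.79 (1.72 to 1.87). Without S100a8 and S100a9 the same sum gave 22.7 and 26.5 CPM, a ratio of 1.17 (1.04 to 1.31).

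Cxcl5 was the most frequent of the ligand transcripts, taking 80.3% of the group's UMIs in the control and 80.9% in rIL7. It had 1998 UMIs (87.1 CPM) in the control and 6651 UMIs (258.5 CPM) in rIL7, with a ratio of 2.97 (2.82 to 3.12). Cxcl1 went from 338 UMIs (14.7 CPM) to 999 UMIs (38.8 CPM), a ratio of 2.64 (2.33 to 2.99). Cxcl2 had 127 UMIs (5.53 CPM) and 453 UMIs (17.6 CPM), a ratio of 3.18 (2.61 to 3.91). Cxcl3 had 24 UMIs (1.05 CPM) and 116 UMIs (4.51 CPM), a ratio of 4.31 (2.76 to 7.00). The make-up of the group differed little, with Cxcl1 at 13.6% and 12.2% and Cxcl2 at 5.11% and 5.51% of its UMIs. The ligand group as a whole stood at 108 and 319 CPM, a ratio of 2.95 (2.82 to 3.08).

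A CPM ratio of at least 1.5 in favor of rIL7 was reached by 6 of the 9 genes, against 7.72% of the 14313 genes. The opposite was reached by 1 of the 9, Retnlg, against 5.95%, with an interval that includes 1. At least 2-fold higher were the 4 ligands, 4 of the 9, against 4.05%, and 0 of the 9 were 2-fold lower, against 2.09%. Of the 6 genes with at least 200 UMIs over both sections, 5 were at least 1.5-fold higher and 0 lower, against 3.71% and 2.38% of all genes of that depth. The median log2 ratio was 0.29 over the neutrophil group and 1.62 over the ligand group, and -0.0022 over all genes. The ratios depended on the weight given to each spot. With every spot weighted the same, the median over the ligand group was 0.80 instead of 1.62, the ratio of Cxcl2 fell from a log2 value of 1.67 to 0.32, and the neutrophil group sum from 0.84 to 0.41.

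As a description of spread, levels were also taken in 4 quadrants, cut at the median array row and column of a section. Cxcl5 ranged from 47.4 to 132 CPM (median 83.2) over the control quadrants and from 196 to 301 CPM (median 260) over those of rIL7. Cxcl1 ranged from 7.09 to 26.0 CPM (median 14.5) and from 31.2 to 44.98 CPM (median 39.1). These were the only genes of the 9 whose quadrants did not overlap between the sections, against 9.74% of all genes with every rIL7 quadrant higher, and 0 of the 9 had every rIL7 quadrant lower, against 9.77%. The other 7 overlapped. Cxcl2 ranged from 0.794 to 16.4 CPM (median 3.38) in the control and from 8.20 to 24.5 CPM (median 18.9) in rIL7. S100a9 ranged from 31.7 to 185 CPM (median 63.7) and from 111 to 222 CPM (median 169). For both genes the highest control quadrant lay within the range of the rIL7 quadrants.

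**Figure D1:**
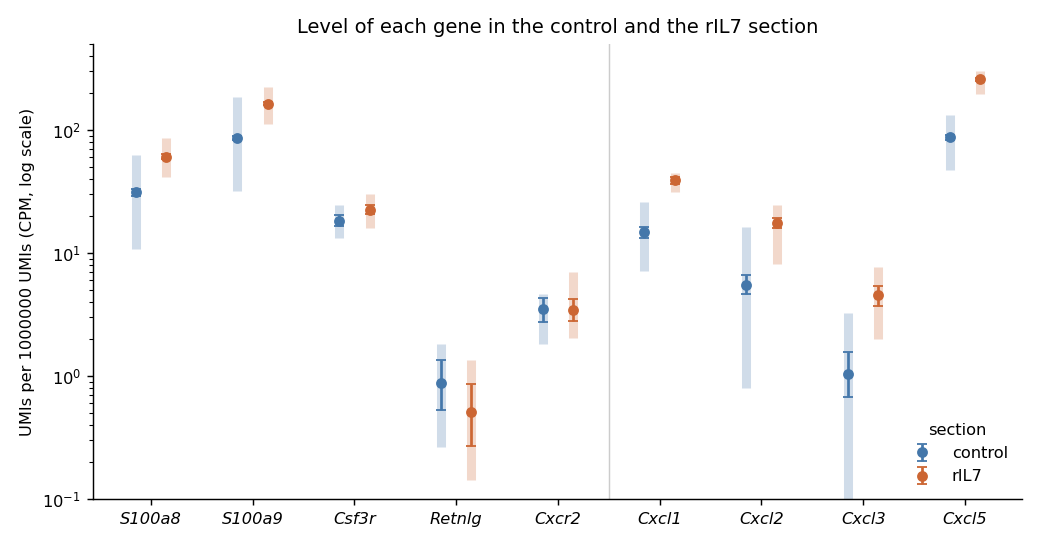
CPM of each of the 9 genes on a log scale in the control (blue) and the rIL7 section (orange). Points are section values with 95% counting intervals, pale bars span the lowest and the highest of 4 quadrants (the bar of Cxcl3 in the control is cut at 0.1 because 1 quadrant held 0 UMIs), and only Cxcl1 and Cxcl5 have quadrant bars that do not overlap.

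The maps of both groups showed a different layout in the 2 sections, with 1 large area rich in neutrophil genes in the core of the control tumor and several smaller ones in the rIL7 tumor. Among the 222 control spots (10%) with the highest CPM of the neutrophil group, 117 formed 1 connected area, and the next largest held 22. This area lay 8 to 22 grid steps from the tissue outline, where neighboring spots are 1 step apart, and none of its spots was at the edge. It held 32.9% of the neutrophil group UMIs of the section. In the rIL7 section the 195 richest spots formed 5 areas of at least 10 spots, with 30, 28, 28, 21 and 14 spots. The rich spots were chosen by CPM, so that some shallow ones among them held only 1 UMI of the group, and 49 of the control and 34 of the rIL7 rich spots had no rich neighbor. The largest rIL7 area held 10.8% of the group's UMIs. The second lay 1 to 6 steps from the outline, with 11 of its 28 spots at the edge, and the other 4 lay 6 steps or more inside.

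**Figure D2:**
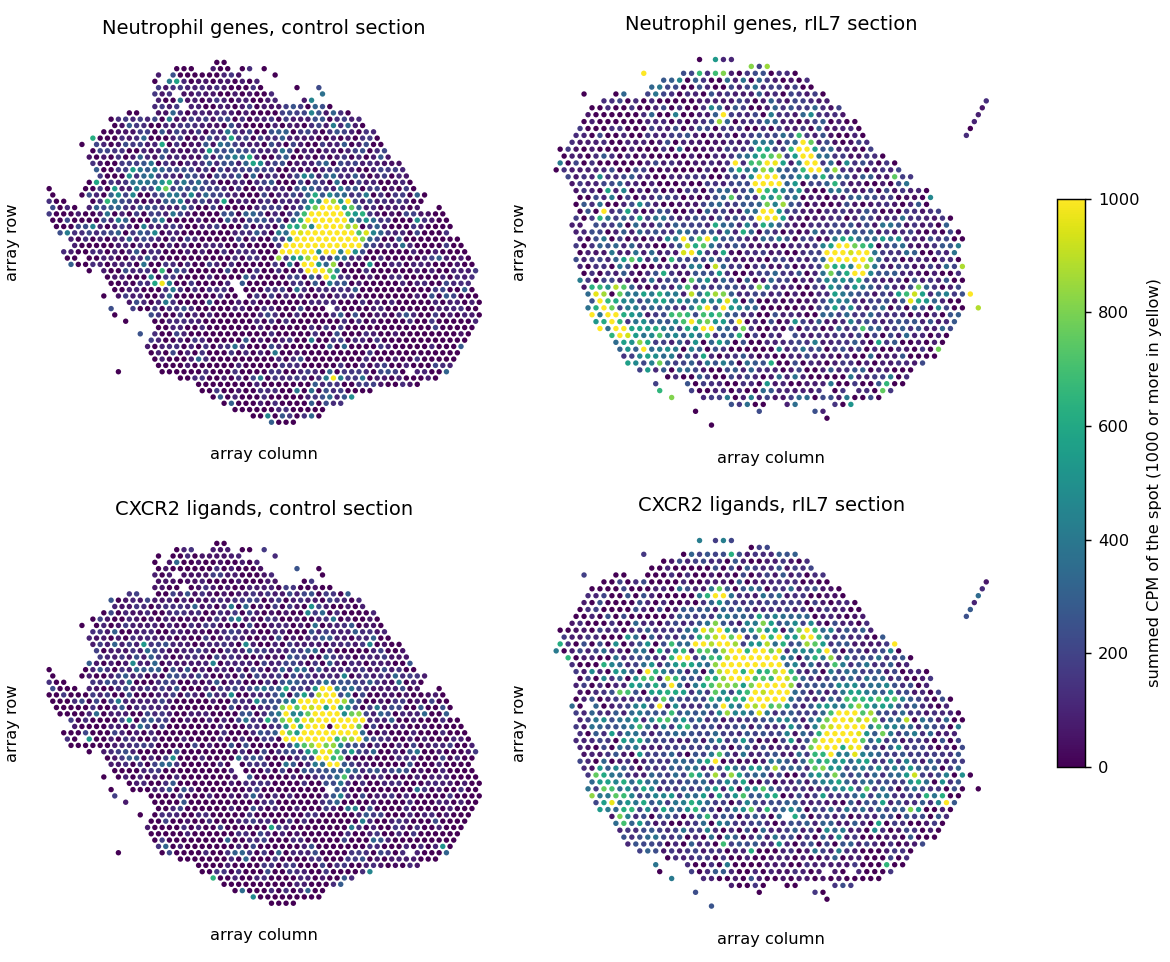
Summed CPM of the neutrophil group (top) and of the ligand group (bottom) in every spot of the control (left) and the rIL7 section (right), placed by array row and column. Values of 1000 CPM or more share 1 color. Among the 10% of spots richest in neutrophil genes, areas of at least 10 spots numbered 2 in the control (117 and 22 spots) and 5 in rIL7.

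The core area of the control was shallow, with a median of 6364 UMIs per spot against 9733 over the control spots outside the richest 10%. It nevertheless rested on 760 UMIs of S100a9, 222 of S100a8 and 59 of Csf3r. Those genes chose the area, so their levels there are no result. The ligands did not choose it, and all 4 were higher in it than in the spots outside the richest 10%. Cxcl2 had 90 of its 127 control UMIs in the area, 116 CPM against 1.62 CPM, a ratio of 71.4 (47.6 to 109). Cxcl3 had 18 of its 24 UMIs there, a ratio of 80.9 (30.8 to 249). Cxcl1 had 39.1% of its UMIs there, a ratio of 18.8 (15.0 to 23.7). Cxcl5 had 18.7%, 480 CPM against 71.7 CPM, a ratio of 6.70 (5.96 to 7.50). In the other control area, of 22 spots, Cxcl2 had 1 UMI, Cxcl3 had 0 and Cxcl1 had 6, and the ligand group was 2.00 times (1.47 to 2.67) the level outside.

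The 5 rIL7 areas differed in their ligands. In the largest, of 30 spots, Cxcl2 stood at 195 CPM against 8.90 CPM outside the richest 10%, a ratio of 21.9 (17.4 to 27.6), and this area held 26.7% of the section's Cxcl2 and 31.9% of its Cxcl3. Cxcl5 there was 2.65 times (2.38 to 2.94) the level outside. The third area, also in the core, had the highest Cxcl5 level of the 5, 741 CPM, a ratio of 3.15 (2.79 to 3.54), with Cxcl2 at 15.0 times (10.8 to 20.3). In the area at the edge Cxcl2 was 8.86 times (5.87 to 13.0) the outside level and Cxcl5 1.26 times (1.04 to 1.51). The fourth area held 3 UMIs of Cxcl2, a ratio of 1.49 (0.304 to 4.41), and in the fifth Cxcl2 was at 18.4 times (11.5 to 28.2) and Cxcl5 at 1.31 times (0.952 to 1.75). Cxcl2 thus varied from 13.2 to 195 CPM and Cxcl5 from 295 to 741 CPM among areas that were all chosen by the neutrophil group sum. Calprotectin made up most of that sum. In the largest rIL7 area S100a8 held 191 and S100a9 478 of the 694 UMIs of the group.

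Cxcr2 was scarce in all of these areas. From the largest rIL7 area to the smallest it had 1, 10, 3, 4 and 4 UMIs, or 1.61, 25.4, 7.53, 17.6 and 27.3 CPM, where the second is the area at the edge (12.2 to 46.8 CPM) and the first has an interval of 0.0408 to 8.99 CPM. The control areas had 4 and 3 UMIs, or 5.13 and 10.3 CPM. Outside the richest 10%, Cxcr2 stood at 2.56 CPM in rIL7 and 3.04 CPM in the control. Only the largest rIL7 area lay below its outside level, at 0.630 times (0.0157 to 3.65), an interval that includes 1. S100a9 stood at 771, 666, 839, 498 and 970 CPM in the rIL7 areas, so that the area with the lowest Cxcr2 level was not the one with the lowest S100a9 level. Both genes are part of the sum that chose the areas, so these values describe the areas and nothing more.

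Taking the richest 10% of spots as a whole, each ligand was higher there than in the rest, in both sections. In the control, Cxcl2 was 29.7 times (19.9 to 45.5), Cxcl3 32.6 times (12.4 to 100), Cxcl1 8.57 times (6.87 to 10.7) and Cxcl5 3.54 times (3.19 to 3.93) the level of the rest. In rIL7, Cxcl2 was 10.4 times (8.60 to 12.6), Cxcl3 15.1 times (10.2 to 22.6), Cxcl1 2.97 times (2.57 to 3.43) and Cxcl5 1.96 times (1.84 to 2.08) as high. Of the richest 10% by neutrophil genes, 42.8% in the control and 42.6% in rIL7 were also in the richest 10% by the sum of Cxcl1, Cxcl2 and Cxcl3. With Cxcl5 the shared part was 41.0% and 28.2%. The neutrophil group itself overlapped less. The richest 10% by S100a8 and S100a9 shared 21.2% of its spots in the control and 23.1% in rIL7 with the richest 10% by Csf3r, Retnlg and Cxcr2. The ratios were smaller without calprotectin. Where the 10% were chosen by Csf3r, Retnlg and Cxcr2 alone, the ligand group was 2.04 times (1.82 to 2.27) as high in the control and 1.14 times (1.05 to 1.22) in rIL7, with Cxcl5 at 1.54 and 1.01 times. That choice rested mainly on Csf3r, which held 421 of the 521 control UMIs and 579 of the 681 rIL7 UMIs of this sum.

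The comparison was repeated within the core and without the shallowest spots. Within spots 12 or more steps from the outline, the 10% richest in neutrophil genes had 44.1 times (28.0 to 71.2) the Cxcl2 of the other deep spots in the control and 11.97 times (9.25 to 15.5) in rIL7. Among spots of at least 5900 UMIs only, which left out 217 control and 81 rIL7 spots, Cxcl2 was 12.9 times (7.86 to 21.4) and 10.9 times (9.03 to 13.2) as high in the richest 10%. For Cxcl5 the values were 4.82 and 1.76 times among the deep spots and 2.80 and 1.95 times among spots of at least 5900 UMIs. Depth and distance were restricted by these choices, which were made after seeing the data, and not matched between rich and other spots.

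Outside the richest 10% of each section, the ratios of the ligands between the sections were larger than over the whole. Cxcl2 was at 1.62 CPM there in the control against 8.90 CPM in rIL7, a ratio of 5.50 (3.81 to 8.16), Cxcl1 at a ratio of 3.58 (3.05 to 4.22) and Cxcl5 at 71.7 and 235 CPM, a ratio of 3.28 (3.10 to 3.47). Cxcl3 had 6 and 42 UMIs there, a ratio of 6.38 (2.70 to 18.4). The higher ligand level of the rIL7 section was therefore also present outside each section's own richest 10%. That cut was not at the same level, since rich spots began at 316 CPM of the neutrophil group in the control but at 562 CPM in rIL7. The spots left in rIL7 were thus richer in neutrophil genes, with 2.08 times (1.97 to 2.21) the summed level of those left in the control. Spots of equal neutrophil-gene level were not compared, and the part of the unequal cut in these ratios was not tested.

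Other transcripts that had no part in the choice were also compared between the richest 10% and the rest. Those given here are only part of the list of neutrophil markers, and most were named after their values were seen. Mmp8, Trem1, Lcn2, Fpr1 and the sum of the list are not given for these spots, so the list as a whole is not described. Hdc, the histidine decarboxylase that neutrophils and mast cells express, was 8.14 times (6.27 to 10.5) as high in the control and 4.54 times (3.60 to 5.70) in rIL7. G0s2, a lipase inhibitor abundant in neutrophils, was at 19.6 times (11.8 to 33.3) and 6.56 times (5.05 to 8.50). Clec4d, a myeloid lectin, was at 3.61 and 3.08 times, and the decoy receptor Il1r2 at 2.88 and 2.72 times. Mmp9, a gelatinase of neutrophil granules that macrophages also make, was at 0.750 times (0.580 to 0.956) in the control and 1.095 times (0.983 to 1.22) in rIL7. Fpr2, a formyl peptide receptor, was at 0.920 and 0.923 times, with intervals that include 1.

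Csf3, which encodes granulocyte colony-stimulating factor, was 6.44 times (3.24 to 12.4) as high in the richest 10% of the control and 5.67 times (3.64 to 8.75) in that of rIL7. Il1b, an inflammatory cytokine of myeloid cells, was at 2.24 times (2.04 to 2.47) and 2.51 times (2.34 to 2.70). The 8 hypoxia genes, which respond to low oxygen, were together 2.36 times (2.27 to 2.46) and 2.29 times (2.22 to 2.36) as high. In the control core area the hypoxia sum was 4.22 times (4.02 to 4.42) the outside level, and in the 5 rIL7 areas it lay between 2.06 and 3.39 times. In the control area of 22 spots it was 0.913 times (0.777 to 1.07) that level.

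Markers of other cells did not follow these genes in the same way. The macrophage sum in the richest 10% was 0.872 times (0.849 to 0.895) the level of the rest in the control and 1.04 times (1.01 to 1.06) in rIL7, and the monocyte sum was at 0.675 and 0.816 times. The CT26 tumor markers Rpl39l and Baiap2l1 together were at 1.02 and 0.906 times, fibroblast genes at 0.957 and 0.826 times and endothelial genes at 1.20 and 0.847 times, both endothelial intervals including 1. Hmox1, the heme oxygenase, was at 3.44 times (2.73 to 4.30) in the control and 8.26 times (7.65 to 8.92) in rIL7, and 37.6% of its rIL7 UMIs were in the largest rIL7 area. The largest rIL7 area also had the macrophage sum at 1.54 times (1.49 to 1.59) the outside level, whereas the control core area had it at 0.555 times (0.527 to 0.584).

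**Figure D3:**
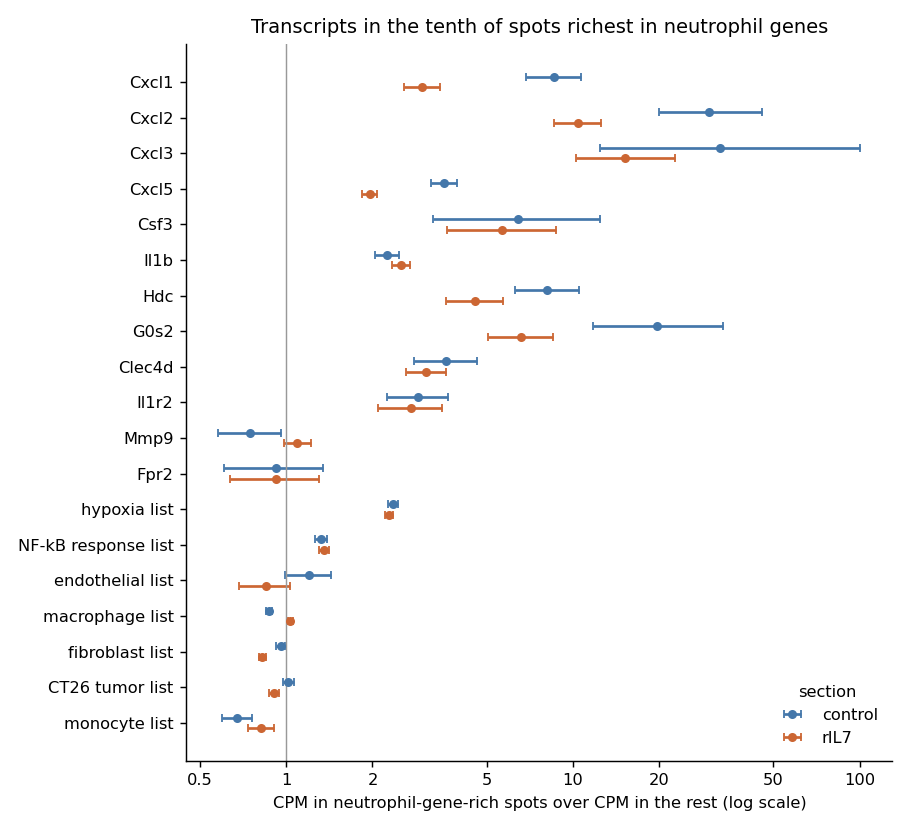
CPM in the 10% of spots richest in neutrophil genes over CPM in the rest, on a log scale, for single genes and summed gene lists that had no part in choosing the spots, with 95% counting intervals (control blue, rIL7 orange). The 4 ligands, Csf3, Hdc, G0s2 and the hypoxia list lie right of 1 in both sections, and the Fpr2 intervals include 1.

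The profile from the tissue outline inward was then read in 5 rings. Edge spots lay within 2 steps of the outline (401 in the control, 330 in rIL7) and all others of the main piece were interior. S100a8, S100a9, Cxcl1, Cxcl3 and Cxcl5 were lower at the edge in both sections with intervals under 1, and Cxcl2 was so in the control, whereas in neither section did Csf3r or Cxcr2 have an interval wholly under 1. In the control, S100a9 had 41.6 CPM at the edge against 97.1 CPM inside, a ratio of 0.429 (0.366 to 0.499), and S100a8 at 19.9 and 33.8 CPM, a ratio of 0.588 (0.466 to 0.736). In rIL7, S100a9 stood at 123 and 171 CPM, a ratio of 0.721 (0.654 to 0.793), and S100a8 at 48.4 and 63.1 CPM, a ratio of 0.768 (0.656 to 0.894).

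Csf3r was at 17.4 CPM at the edge and 18.6 CPM inside in the control, a ratio of 0.938 (0.724 to 1.20). In rIL7 it was at 28.8 and 21.4 CPM, a ratio of 1.35 (1.09 to 1.66). The ratio for Cxcr2 was 1.03 (0.555 to 1.80) in the control and 0.620 (0.274 to 1.24) in rIL7, from 16 and 9 edge UMIs, and Retnlg had 1 edge UMI in each section. The difference between the sections in these ratios was not tested.

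Among the ligands, Cxcl5 had the lowest edge ratio in rIL7, 0.315 (0.282 to 0.350), from 91.2 CPM at the edge and 290 CPM inside. In the control its ratio was 0.469 (0.404 to 0.543). Cxcl1 had a ratio of 0.492 (0.338 to 0.696) in the control and 0.618 (0.497 to 0.761) in rIL7. Cxcl2 had 5 edge UMIs in the control, a ratio of 0.169 (0.0538 to 0.404), and 59 in rIL7, a ratio of 0.826 (0.617 to 1.09). Cxcl3 had 0 of its 24 control UMIs of the main piece at the edge, and in rIL7 a ratio of 0.354 (0.139 to 0.754).

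A ratio of 1.5 or more in favor of the interior was found for 7 of the 9 genes in the control, against 6.22% of all genes with at least 20 UMIs in that section. The control count includes Retnlg, whose interval of 0.00521 to 1.36 includes 1. In rIL7 it was found for 4 of the 8 genes with that many UMIs (Retnlg had 13), against 9.82%, and these include Cxcr2, whose interval also includes 1. The opposite was found for 0 of the 9 in the control, against 3.38%, and 0 of the 8 in rIL7, against 12.2%. The median log2 edge ratio of the neutrophil group was -0.76 in the control and -0.47 in rIL7, and that of the ligand group was -1.06 in the control, with Cxcl3 set to the bound of 3 edge counts (-1.09 without it), and -1.096 in rIL7. The median over all genes was -0.06 and -0.05.

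By ring, the calprotectin genes and the ligands were highest 12 or more steps from the outline in both sections. S100a9 in the control stood at 41.6, 49.97, 54.1, 82.4 and 190 CPM from the outermost ring (1 to 2 steps) to the innermost, and in rIL7 at 123, 112, 136, 162 and 225 CPM. The control level was higher in each ring than in the one outside it, with the largest step into the innermost ring, while the outermost ring of rIL7 already lay above the first 4 rings of the control. The ratio of the sections for S100a9 was 2.96 (2.50 to 3.53) in the outermost ring and 1.18 (1.09 to 1.28) in the innermost.

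Cxcl2 in the control stood at 1.12, 0.529, 1.48, 2.41 and 20.6 CPM, so that 101 of its UMIs were in the innermost ring. In rIL7 it stood at 15.0, 8.33, 8.02, 13.8 and 31.6 CPM, higher in the outermost ring than in the next rings. Its section ratio was 13.4 (5.45 to 42.9) in the outermost ring and 1.54 (1.21 to 1.95) in the innermost. Cxcl5 increased at every ring, from 45.6 to 165 CPM in the control and from 91.2 to 423 CPM in rIL7, and its section ratio was 2.00 (1.68 to 2.39) in the outermost ring, 3.55 (3.18 to 3.97) at 8 to 11 steps and 2.57 (2.38 to 2.78) in the innermost. Cxcl1 differed by 3.17-fold (2.14 to 4.77) in the outermost and 1.71-fold (1.43 to 2.05) in the innermost ring.

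Csf3r ran the other way in rIL7, from 28.8 CPM in the outermost ring to 18.2 CPM in the innermost, with 17.4 and 20.2 CPM in the control. Its section ratio was 1.65 (1.23 to 2.23) in the outermost ring and 0.901 (0.693 to 1.18) in the innermost. For the neutrophil group as a whole the section ratio was 2.45 (2.17 to 2.78) in the outermost and 1.20 (1.12 to 1.28) in the innermost ring. The depth of the rings moved in opposite directions, from a median of 10901 UMIs per spot in the outermost to 8571 in the innermost ring of the control and from 11165.5 to 15552.5 in rIL7. The part of depth in these profiles was not tested.

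**Figure D4:**
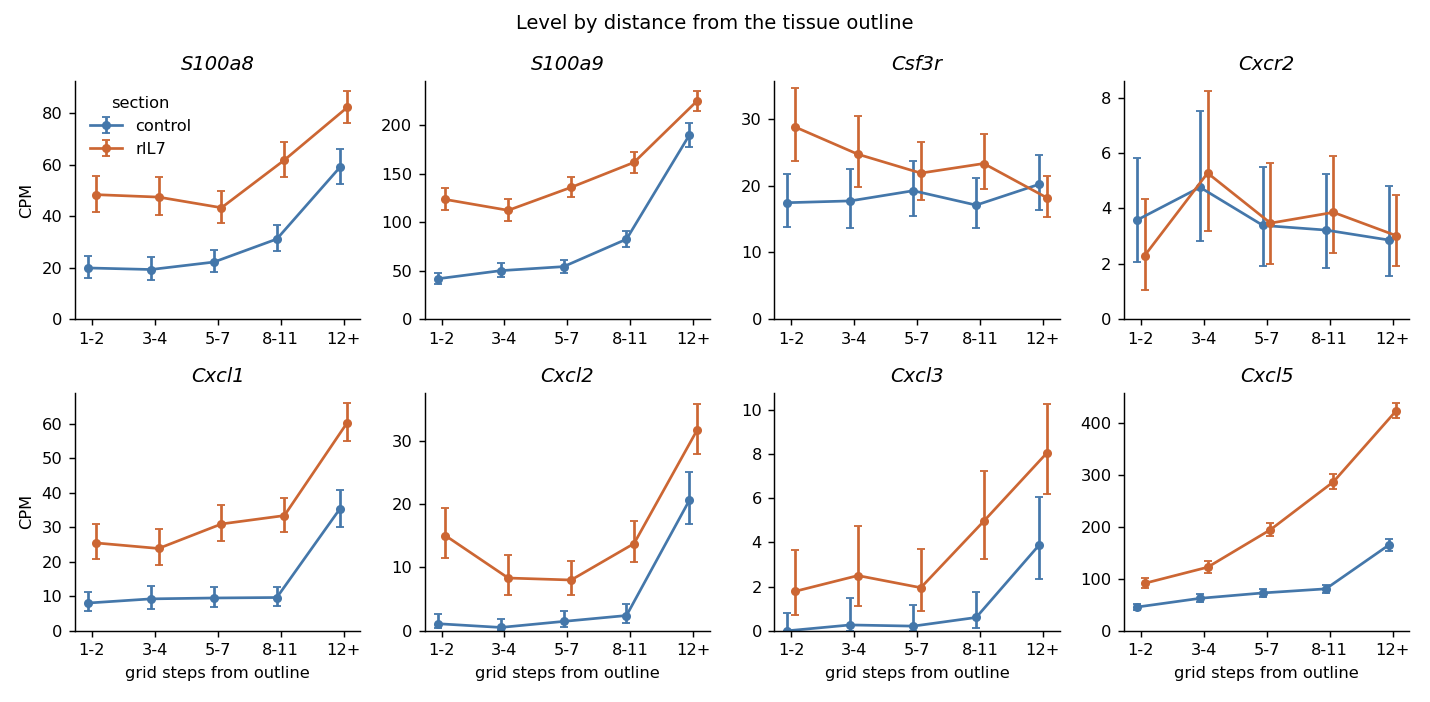
CPM by distance from the tissue outline in grid steps for 8 of the 9 genes (Retnlg, with 1 UMI in the outermost ring of each section, is not drawn), control in blue and rIL7 in orange, with 95% counting intervals and an axis from 0 in each panel. Calprotectin genes and ligands are highest at 12 or more steps in both sections, while Csf3r in rIL7 is highest in the outermost ring.

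How far a gene was confined to few spots was read from the number of spots with a UMI over the number expected had the gene taken the same share of every spot's UMIs (the occupancy ratio, 1 for an even spread). A ratio under 0.8 was found for 3 of the 9 genes in the control, against 0.364% of all genes with at least 20 UMIs there, and for 5 of the 8 such genes in rIL7, against 0.606%. Cxcl2 stood at 0.659 in the control and 0.639 in rIL7, S100a9 at 0.688 and 0.779, and S100a8 at 0.798 and 0.778. Cxcl1 lay at 0.810 and 0.787, Cxcl5 at 0.868 and 0.854 and Cxcl3 at 0.964 and 0.757. Csf3r, at 0.974 and 0.971, and Cxcr2, at 1.01 and 0.991, lay near 1. With few UMIs per spot this ratio stays near 1 whatever the spread, so the values of Csf3r, Retnlg, Cxcr2 and control Cxcl3 say little. The shares over all genes, 0.364% and 0.606%, also include such scarce genes and were not matched for the number of UMIs.

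Cxcl2 was in 81 of 2219 control spots, and 22 spots (1%) held 52.0% of its UMIs. In rIL7 it was in 255 of 1950 spots, and 20 spots held 29.1%. The spot with most Cxcl2 held 6 UMIs in the control and 14 in rIL7. For S100a9 the highest spot held 27 and 35 UMIs, and the same numbers of spots held 17.8% and 10.7% of its UMIs. Such shares also depend on the number of UMIs, which for Cxcl2 was 127 in the control and 453 in rIL7. Cxcr2, with 80 and 89 UMIs and at most 2 in a spot, had 28.75% and 25.8%. The shares of Cxcl2 in the 2 sections are therefore not like for like. Beside a spot with Cxcl2, the neighboring spots stood at 14.9 times the section's level in the control and 3.15 times in rIL7, so that the Cxcl2 signal was clustered. Over the 9 genes this ratio ran from 1.30 (Csf3r) to 19.0 (Cxcl3) in the control. In rIL7 it ran from 0 (Retnlg, 13 UMIs) to 6.18 (Cxcl3). S100a9 was at 1.72 and 1.21 times and Cxcl5 at 1.31 and 1.12 times.

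Variation between spots beyond counting error, given as a coefficient of variation (CV) for genes of at least 200 UMIs, gave a like picture. It was 1.92 for S100a9 in the control and 1.28 in rIL7, 2.20 and 1.57 for Cxcl1, 0.970 and 0.938 for Cxcl5, and 0.744 and 0.557 for Csf3r. Cxcl2 reached it only in rIL7, at 2.83. The median over all such genes was 0.189 and 0.181, and a CV of at least 0.5 was found for 5 of 5 of the genes described here in the control, against 8.15% of all, and 6 of 6 in rIL7, against 9.23%.

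To set aside depth, each spot was thinned to 5900 UMIs. Of the thinned spots, 25.6% in the control and 46.0% in rIL7 had a UMI of S100a9, and 33.8% and 63.3% had one of Cxcl5. Without thinning the shares were 38.8% and 66.2% for S100a9 and 49.2% and 80.2% for Cxcl5. Cxcl1 was in 6.24% and 16.7% of thinned spots, Cxcl2 in 1.499% and 7.12%, Csf3r in 9.09% and 12.1% and Cxcr2 in 2.05% and 2.09%. Thinning leaves out the shallowest spots, and the core area of the control had a median of only 6364 UMIs per spot.

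**Figure D5:**
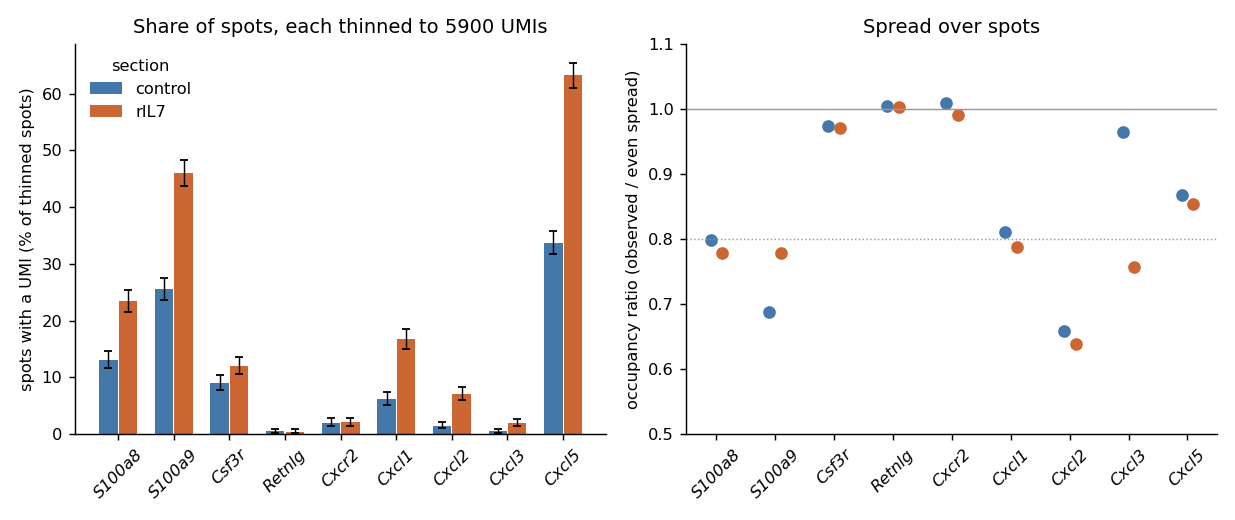
Left, percentage of spots with at least 1 UMI of each gene after thinning to 5900 UMIs, with 95% exact binomial intervals. Right, occupancy ratio, where the solid line at 1 is an even spread and the dotted line at 0.8 was undercut by 0.364% of genes in the control and 0.606% in rIL7, Cxcl2 and S100a9 among them in both sections.

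Across thinned spots, Spearman's rho between the summed groups was 0.18 in the control (2002 spots) and 0.27 in rIL7 (1869 spots). These values are low in sparse counts and describe the sections only. Among genes of at least 500 UMIs that are in neither group, the 5 most like the neutrophil group were Il1b, Mmp3, Prelp, Ftl1 and Cebpd in the control, with rho from 0.13 to 0.16, and Mt1, Fth1, Il1b, Mt2 and Hmox1 in rIL7, with rho from 0.21 to 0.29. The 5 most like the ligand group were Fth1, Mt1, Osmr, Prelp and Bnip3 in the control (0.14 to 0.15) and Mt1, Mt2, Fth1, Hmox1 and Ldha in rIL7 (0.25 to 0.30).

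Further genes of the neutrophil and its recruitment were described from lists. In the list of 15 neutrophil markers beside the 9 genes, 10 had at least 20 UMIs, of which 4 were at least 1.5-fold higher in rIL7 and 0 lower, against 7.72% and 5.95% of all genes, with a median log2 ratio of 0.23 against -0.0022. Lcn2, the iron-binding lipocalin of neutrophil granules that epithelia also make, had 54 and 335 UMIs, a ratio of 5.53 (4.14 to 7.52), and Il1r2 415 and 341 UMIs, a ratio of 0.733 (0.633 to 0.848). Of the 8 signals that draw neutrophils, 6 were measured at that level and 3 of these were at least 1.5-fold higher and 0 lower, against the same 7.72% and 5.95%. Il1a, an alarm cytokine, had 6 and 53 UMIs, a ratio of 7.88 (3.39 to 22.4), Csf3 43 and 93 UMIs, a ratio of 1.93 (1.33 to 2.84), Il1b 3030 and 4296 UMIs, a ratio of 1.26 (1.21 to 1.33), and Il23a 19 and 18. Il17a had 0 UMIs in both sections.

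Among the other CXCR2 ligands and chemokine-binding genes, the platelet chemokine gene Ppbp had 62 and 82 UMIs, a ratio of 1.18 (0.838 to 1.67). Its neighbor Pf4, a platelet and macrophage chemokine gene that lies between the ligand genes on chromosome 5, had 3295 and 7447 UMIs, a ratio of 2.02 (1.93 to 2.10). Ackr1, the scavenger receptor of venules that binds the ligands without signaling, had 9 and 34 UMIs, a ratio of 3.37 (1.58 to 7.99). Of its rIL7 UMIs, 17 were at the edge and 6 in the interior of the main piece. Its edge level was 15.6 times (5.88 to 48.4) the interior level. The rest of its rIL7 UMIs lay in the 21 spots off the main piece, which count in the section ratio. Cxcl15 had 4 and 0 UMIs.

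Of 11 adhesion and extravasation genes, 5 were at least 1.5-fold higher in rIL7 and 0 lower, against 7.72% and 5.95% of all genes. Selp, the endothelial and platelet selectin, had the highest ratio, 2.77 (1.65 to 4.83), and Itgam, a subunit of the myeloid integrin, the lowest, 0.956 (0.896 to 1.02). Of 9 oxidase and extracellular trap genes, 6 were measured and 0 reached 1.5-fold in either direction, against those same shares, from Ncf1 at 1.13 (1.03 to 1.24) to Ncf4 at 0.848 (0.802 to 0.895). Of 9 NF-kB response genes, 2 were at least 1.5-fold higher and 0 lower, against 7.72% and 5.95%, with Ptgs2 at 1.72 (1.59 to 1.86) and Nfkb2 lowest at 1.02 (0.990 to 1.05).

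Markers of other cells that can express these genes, or that differed between the sections, moved as follows. Keratinocyte markers were summed to 64.0 and 39.6 CPM in control and rIL7, with Krt5 at 196 and 0 UMIs and Krt10 at 895 and 966, and in the control they summed to 133 CPM at the edge against 43.5 CPM inside. Monocyte markers summed to 224 and 182 CPM, from Ly6i at 2.96 times (2.20 to 4.04) to Ms4a4c at 0.448 times (0.411 to 0.489). Macrophage markers summed to 3457 and 3926 CPM, from Mrc1 at 1.30 to Adgre1 at 0.775 times. Fibroblast markers summed to 1909.5 and 2146 CPM, from Dcn at 1.61 to Lum at 0.657 times, and endothelial markers to 58.4 and 45.9 CPM, from Emcn at 0.959 to Tie1 at 0.669 times. Hypoxia genes summed to 686 and 876 CPM, from Adm at 2.45 to Vegfa at 1.05 times. Platelet markers summed to 22.7 and 24.5 CPM, with Treml1 lowest at 0.582 times, CT26 markers to 1293 and 1043 CPM, with Rpl39l at 0.877 and Baiap2l1 at 0.771 times, and hemoglobin genes to 3.83 and 2.72 CPM, from Hbb-bs at 0.724 to Hba-a1 at 0.563 times. Their part in the values of the 9 genes was not tested.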

How the data were processed

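Visium data of 1 control and 1 rIL7 section were analysed. The authors embedded and froze the tissue, and counted UMIs per gene and spot. The submitters' processing notes name Space Ranger 1.1.0 and the build mm10. The deposited matrices hold raw counts, and spot barcodes, gene symbols and array positions (other columns) were used as the authors deposited them. Image scale factors were not used here. Spots with under 10% mitochondrial UMIs and over 200 genes were kept, the study's filter, which removed 2 control and 1 rIL7 spots. The sections share 1702 barcode sequences, which are those of the slide grid.

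CPM was computed from summed counts, with exact Poisson intervals for a level and exact binomial (Clopper-Pearson) intervals for a share or ratio, all at 95% and covering counting error only. A count of 0 was bounded by a floor of 3 counts per library or area. Edge spots lay within 2 steps of the outline of the largest connected piece. Software was Python 3.11.15 with numpy 2.4.6, scipy 1.17.1, pandas 2.3.3 and matplotlib 3.10.9. The scaling alternatives used edgeR 4.0.16 and DESeq2 1.42.0 in R 4.3.3, for size factors only. Intervals were tested only on simulated Poisson counts, which lack the variation between spots beyond counting error seen here. Concentration measures were tested on counts simulated with a known CV.

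The 9 genes and all lists (neutrophil, neutrophil-drawing signals, other CXCR2 ligands and scavenger receptors, adhesion and extravasation, oxidase and NET genes, NF-kB response, macrophage, monocyte, keratinocyte, fibroblast, endothelial, platelet, CT26 tumor, hypoxia and red blood cell) were chosen with earlier results of these data known. Named genes were the 9 genes, Ly6g, Cxcr1, Ppbp, Csf3, Il1b, Ackr1 and Pf4, the highest and lowest ratio of each list among genes of at least 20 UMIs, and the 5 genes of at least 500 UMIs most like each group sum by Spearman's rho. Hdc, G0s2, Clec4d, Mmp8, Mmp9, Mpo, Fpr2, Hmox1, Ngp, Elane, Camp, Ltf, Il17a and Cxcl15 were named after their values were seen, as were the connected areas. Alternatives were other spot filters, scaling, weighting, left-out spots, edge widths, thinning to 4000 UMIs and other choices of rich spots. Spots are not replicates, and no test was run.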

Additional observations from a re-analysis of the deposited data

Results flagged for a closer look

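Among the 9 genes and 7 others described with them, limited to those with at least 20 UMIs in each section, the edge over interior ratio ran in opposite directions in the 2 sections for 3 genes, and this difference was not tested, since each group had 1 section. Csf3r was at 0.938 in the control and 1.35 in rIL7. Cxcr2 was at 1.03 and 0.620, both with intervals that include 1. Il1b was at 0.884 (0.804 to 0.971) and 1.18 (1.09 to 1.28), so that its 2 intervals lay on opposite sides of 1. Ackr1, left out by its 9 control UMIs, was at 0.514 (0.0116 to 3.83) and 15.6 (5.88 to 48.4). Macrophage markers summed to 3765 CPM at the edge and 3378 CPM inside in the control, and to 6732 and 3396 CPM in rIL7, and their part in these ratios was not tested.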

How the results depend on the processing

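Each group held 1 section, so no value carries an error between animals, and scarce genes (Retnlg, Cxcr2 and control Cxcl3) are limited by depth. No paired analysis was possible because each group holds 1 section. Of the alternatives for the summed groups, their medians and counts, 87 stayed within their error, 37 moved and 0 reversed. Settings that left a gene with 0 UMIs gave no value for it, chiefly Cxcl3 at the control edge and Retnlg without its richest spots. All ratios here are log2.

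For rIL7 over control, the neutrophil sum (0.84 as reported) was 0.41 with spots weighted the same. It was 0.93 without the 1% and 1.01 without the 5% of spots with most UMIs. It was 0.75 in interior and 1.30 in edge spots, and 1.06 outside the 10% richest in neutrophil genes. The ligand sum (1.56) was 1.11 with spots weighted the same, 1.29 at the edge, 1.69 without the 5% and 1.75 outside the rich 10%. The neutrophil median (0.29) was 0.72 at the edge. Without the 1% it was 0.69 over the 4 genes left with a value, whose median as reported was 0.61, and without the 5% it was 1.16 over 3 genes, whose median as reported was 0.92, so that much of either move came with the genes lost. The ligand median (1.62) was 0.80 with spots weighted the same and 2.15 outside the rich 10%. Leaving out the 5% or the rich 10% was chosen after seeing the data.

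For edge over interior in the control, spots weighted the same gave -1.42 for the neutrophil sum (-0.90), -1.45 for the ligand sum (-1.15), -1.13 for the neutrophil median (-0.76) and -1.34 for the ligand median (-1.09). Without the 1% the neutrophil sum was -0.64 and the median -0.38 over the 4 genes left, which as reported had a median of -0.43, and an edge of 1 step gave a sum of -0.74. Thinned to 4000 UMIs, 31.4% of control and 50.9% of rIL7 spots had a neutrophil-group UMI, and 29.2% and 56.7% a ligand UMI. In spots rich in neutrophil genes, the ligand group (2.23 in the control, 1.28 in rIL7) was at 3.03 and 1.54 for the richest 5%. It was at 1.03 and 0.18 with spots chosen without S100a8 and S100a9, and at 2.94 and 1.20 at 12 or more steps. Among spots of at least 5900 UMIs it was 1.74 in the control. Over all genes, 1105 were at least 1.5-fold higher and 851 lower in rIL7. At 2-fold these were 579 and 299, and among genes of at least 200 UMIs 411 and 263.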
